A study of Mus musculus with 2 samples.

Results

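The phagocyte NADPH oxidase is represented here by 7 genes, taken by symbol from the gene tables of both libraries: Cybb, Cyba, Ncf1, Ncf4, Rac1, Rac2 and Hvcn1. All 7 were found, among 43346 measured genes. The libraries come from total RNA of the spleens of 2 mice of strain B6NCrl at postnatal day 0, with 1 library per spleen. Replicate 1 is labelled pup 2 and replicate 2 pup 1, both of pregnancy 1 and with 1 shared donor identifier, so they were taken as separate pups of 1 litter. The labels name no treatment and no engineered allele, and list the sex of the pups as not collected. The libraries form 1 group (P0 spleen, n = 2), so the design holds no contrast between conditions and no test was run; the data give the level of each gene and how far the 2 libraries lay apart. Library totals were 33122187 estimated counts for replicate 1 and 32162543 for replicate 2. The defining genes of spleen mesenchyme were present in both libraries, with Tlx1 at 15.5 TPM in replicate 1 and 24.1 TPM in replicate 2, Nkx2-5 at 15.0 TPM in replicate 1 and 20.5 TPM in replicate 2, and Col3a1 and Tcf21 at 331 ± 94.2 and 125 ± 15.3 TPM (SD, n = 2 each).

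The oxidase makes superoxide in neutrophils, monocytes and macrophages by passing electrons from NADPH across a membrane to oxygen. A flavocytochrome of 2 chains sits in the membrane, and its cytosolic partners and a Rac GTPase join it when the cell is activated. Loss of a core subunit causes chronic granulomatous disease in humans, in which phagocytes take up microbes but kill them poorly. The newborn mouse spleen is a blood-forming organ and holds maturing neutrophils and macrophages among many red cell precursors.

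All 7 genes were expressed in both spleens. Each reached 1 TPM (an abundance normalized for transcript length and library total) in both libraries, as did 31.0% of all genes and 55.6% of the 21474 protein-coding genes. Their summed level was 609 TPM in replicate 1 and 791 TPM in replicate 2, or 700 ± 128 (SD, n = 2). The levels spanned from Hvcn1 at 7.39 ± 2.83 TPM to Cyba at 304 ± 66.8 TPM (SD, n = 2 each). In order of mean level Cyba led, followed by Rac1, Rac2, Ncf4, Ncf1, Cybb and Hvcn1. Only Rac2 and Ncf4 had overlapping ranges among neighbours in this order. In bulk tissue fewer expressing cells and less RNA per cell cannot be told apart, so these are levels of the whole organ.

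**Figure D1:**
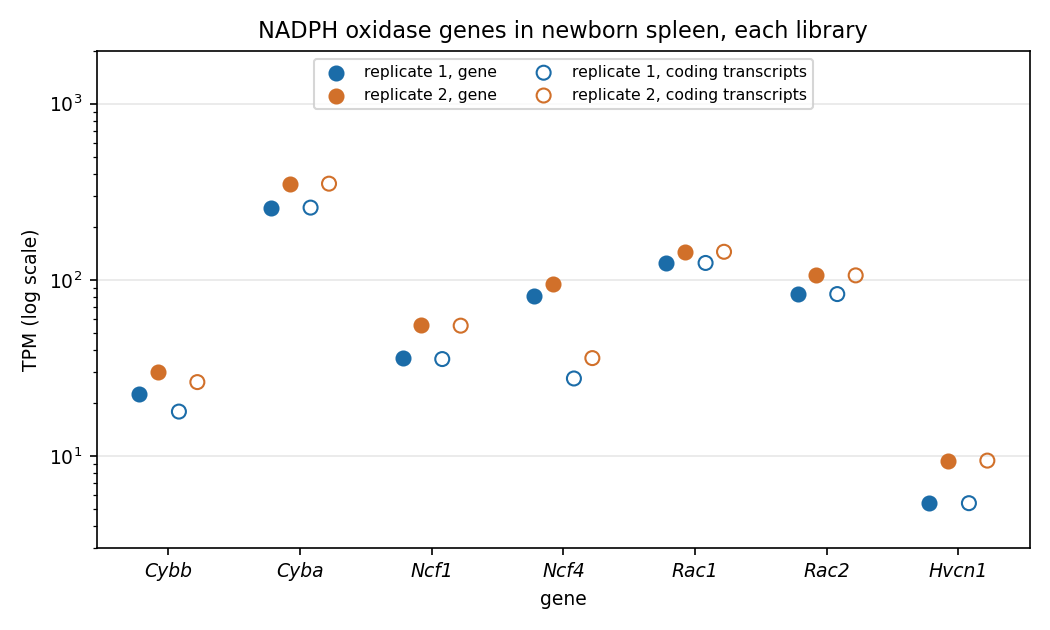
TPM of each gene on a log axis, in replicate 1 (blue) and replicate 2 (orange), for the whole gene (filled) and for its annotated protein-coding transcripts alone (open). Cyba is highest in both libraries and Hvcn1 lowest, and the filled and open points lie far apart for Ncf4, at 87.5 TPM on average for the gene and 31.7 TPM for its coding transcripts.

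Among the membrane subunits, Cybb was far below its partner Cyba. Cybb encodes the catalytic chain of the flavocytochrome, which carries the haem groups and the flavin, and lies on chromosome X (9435252 to 9487771, minus strand, mm10). It had 22.5 TPM in replicate 1 and 29.7 TPM in replicate 2, from 2710 and 3696 counts, a mean of 26.1 ± 5.09 TPM (SD, n = 2). Its mean level was higher than that of 82.5% of protein-coding genes. Cyba encodes the smaller chain, which stabilises the catalytic one and is also used by other NADPH oxidases, and lies on chromosome 8 (122424776 to 122432930, minus strand). It had 257 TPM in replicate 1 and 352 TPM in replicate 2, from 5339 and 6888 counts, a level above that of 98.6% of protein-coding genes. Per length, Cyba was 11.4 times Cybb in replicate 1 and 11.8 times in replicate 2, a mean ratio of 11.6 ± 0.294 (SD, n = 2). The ratio of the levels thus varied less between the pups than either level did. By coding transcripts alone the ratio was 14.4 in replicate 1 and 13.4 in replicate 2. Cyba has 1 transcript in the files, of 758 nt, while the leading Cybb transcript has 4752 nt, and the long gene model Gm20388 that spans Cyba on the other strand held 0.02 counts in replicate 1 and 0 in replicate 2.

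Of the cytosolic subunits, Ncf1 encodes the organizer, whose phosphorylation on activation lets it dock on the flavocytochrome. It lies on chromosome 5 (134220053 to 134229625, minus strand). Ncf1 had 36.0 TPM in replicate 1 and 55.3 TPM in replicate 2, from 2955 and 4295 counts, or 45.6 ± 13.6 TPM (SD, n = 2). Its level was 1.73 ± 0.185 times that of Cybb (SD, n = 2). Gtf2ird2 overlaps its end on the other strand, at 2.98 TPM in replicate 1 and 3.44 TPM in replicate 2, and the quantification put a posterior SD of 1.91 and 1.90 counts on Ncf1, so little uncertainty came from reads shared with other genes. Ncf4 encodes a subunit that binds the phosphoinositide PI3P on phagosome membranes and lies on chromosome 15 (78244801 to 78262580, plus strand). Ncf4 had 80.4 TPM in replicate 1 and 94.5 TPM in replicate 2, from 1720 and 2113 counts, or 87.5 ± 9.97 TPM (SD, n = 2). By gene TPM Ncf4 was 1.97 ± 0.371 times Ncf1 (SD, n = 2), although it had fewer counts in both libraries.

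That order of Ncf4 and Ncf1 depended on short transcripts annotated as retaining an intron, mainly Ncf4-206 and Ncf4-204. Ncf4-206, of 540 nt, held 42.6 TPM in replicate 1 and 42.4 TPM in replicate 2, which is 48.9% ± 5.70 of the TPM of the gene (SD, n = 2). The full coding transcript Ncf4-201, of 1464 nt, held 20.7 TPM in replicate 1 and 34.9 TPM in replicate 2, a share of 31.3% ± 7.93. Ncf4-204, of 336 nt, held 9.48 TPM in replicate 1 and 15.6 TPM in replicate 2, a share of 14.1% ± 3.31. By estimated counts the order was the other way: Ncf4-201 took 51.7% of the reads in replicate 1 and 67.0% in replicate 2, and Ncf4-206 took 34.4% and 26.3%. Of the 540 nt of Ncf4-206, 446 lie in exons of Ncf4-201, including 259 coding nt, and 94 lie outside them, so most of its sequence is shared with the coding transcript. The posterior SD was 18.9 and 23.1 counts for Ncf4-206 in replicates 1 and 2, on 591.75 and 556.17 counts, and 51.3 and 51.6 counts for Ncf4-201, on 888.52 and 1414.93. Without Ncf4-206, Ncf4 stood at 37.9 TPM in replicate 1 and 52.1 TPM in replicate 2, above Ncf1 in replicate 1 and below it in replicate 2. Without Ncf4-206 and Ncf4-204 it stood at 28.4 TPM in replicate 1 and 36.6 TPM in replicate 2, below Ncf1 in both. Counting coding transcripts alone, Ncf4 stood at 31.7 ± 5.94 TPM and Ncf1 at 45.2 ± 13.7 TPM (SD, n = 2 each), and Ncf4 was 0.715 ± 0.0859 times Ncf1. The value for Ncf4-206 was nearly equal in the 2 libraries, and the value for Ncf4-201 was higher in replicate 2. Ncf4-203, another coding transcript, went the other way, with 6.84 TPM in replicate 1 and 1.03 TPM in replicate 2. These values came from 154.04 and 21.84 counts with posterior SDs of 38.5 and 35.7. Ncf4-203 had 814 nt as quantified and 792 nt in GENCODE M21, where its exons all lie within those of Ncf4-201. The coding transcripts together held 27.5 TPM in replicate 1 and 35.9 TPM in replicate 2.

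**Figure D2:**
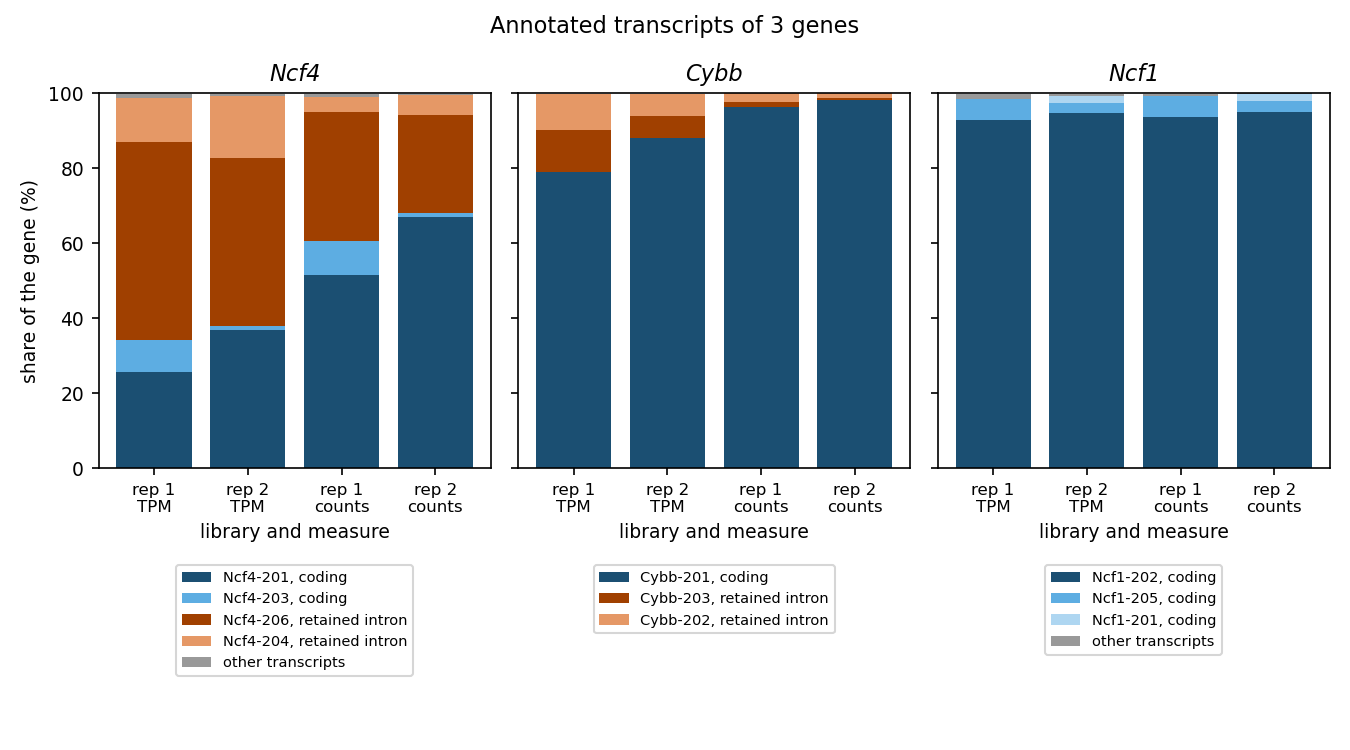
Share of each annotated transcript (in percent of the gene) for Ncf4, Cybb and Ncf1, by TPM and by estimated counts in replicates 1 and 2; blue is protein-coding, orange is retained intron, and grey is the sum of transcripts under 1%. Retained-intron transcripts take a large part of Ncf4 on both measures, a part of Cybb by TPM but little by counts, and almost none of Ncf1.

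The other members were simpler in their transcripts. Cybb-201 held 83.6% ± 6.41 of the TPM of Cybb and 97.3% of its counts, with the rest in 2 retained-intron transcripts, Cybb-202 and Cybb-203. These are short, at 928 and 566 nt, and Cybb-204 and Cybb-205 had 0 counts in both libraries. Ncf1-202 held 93.8% ± 1.16 of the TPM of Ncf1. Hvcn1-201 held 99.1% ± 0.337 of Hvcn1, but its posterior SD was 75.3 counts on 451.52 in replicate 1 and 85.7 on 746.52 in replicate 2, while Hvcn1-202 was at 0 counts with a posterior SD of 75.4 in replicate 1 and 85.6 in replicate 2. By the deposited posterior means Hvcn1-201 held 82.1%, so the split between these coding transcripts is not well determined.

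Rac1 and Rac2 encode the GTPases that switch the oxidase on. Rac2 is largely restricted to blood cells and is the form neutrophils mainly use, while Rac1 is expressed in nearly all cells and drives actin remodelling as well. Rac1 lies on chromosome 5 (143503634 to 143528036, minus strand) and had 125 TPM in replicate 1 and 144 TPM in replicate 2, or 134 ± 13.8 (SD, n = 2). Rac2 lies on chromosome 15 (78559167 to 78572783, minus strand) and had 82.9 TPM in replicate 1 and 106 TPM in replicate 2, or 94.4 ± 16.3 (SD, n = 2). Rac1 was thus 1.503 times Rac2 in replicate 1 and 1.361 times in replicate 2. Daglb overlaps the end of Rac1 on the other strand, at 14.5 TPM in replicate 1 and 14.7 TPM in replicate 2. In replicate 1 the deposited interval of Rac2, 79.7 to 83.3 TPM, lay within that of Ncf4, 73.8 to 85.7 TPM; in replicate 2 they were apart, at 102 to 106 TPM for Rac2 and 87.5 to 100.9 TPM for Ncf4. No source used here states the confidence level of these intervals.

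The quantification put a posterior SD of 0 counts on the gene totals of Rac1 and of Rac2 in both libraries, so sharing of reads between genes left no uncertainty in these totals. Rac1-201 held 99.8% ± 0.0819 of the TPM of Rac1 (SD, n = 2). Rac1-202, a second protein-coding transcript, was at the limit of what these data resolve. It held 0.30 TPM in replicate 1 and 0.18 TPM in replicate 2, or 0.183% ± 0.0819 of Rac1 (SD, n = 2), with a posterior SD of 15.9 counts on 21 in replicate 1 and 14.4 on 11.71 in replicate 2. Rac2 has 1 transcript in the files.

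Hvcn1 encodes the voltage-gated proton channel, which lets protons follow the electrons that the oxidase moves and so keeps it running; B cells express it too. It lies on chromosome 5 (122206804 to 122242297, plus strand). Hvcn1 had 5.39 TPM in replicate 1 and 9.39 TPM in replicate 2, from 453.31 and 748.18 counts. Its SD was 38.3% of its mean, the widest of the 7, against 10.3% for Rac1, the narrowest. Cybb was 4.18 times Hvcn1 in replicate 1 and 3.17 times in replicate 2. Tctn1 overlaps the end of Hvcn1 on the other strand, at 2.50 TPM in replicate 1 and 3.69 TPM in replicate 2. No source used here states whether reads were counted by strand, so reads of overlapping genes on opposite strands may not have been told apart.

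The other oxidases were far lower than the phagocyte one. Of 9 genes of the wider family, 0 reached 1 TPM in both libraries, against 55.6% of protein-coding genes. Their summed level was 2.10 TPM in replicate 1 and 2.01 TPM in replicate 2. Nox4, a constitutively active oxidase of kidney and vessel wall, had 0.79 TPM in replicate 1 and 0.97 TPM in replicate 2. Noxo1, the organizer of the Nox1 oxidase, had 1.04 TPM in replicate 1 and 0.64 TPM in replicate 2, while Nox1 itself had 0.11 TPM in replicate 1 and 0.08 TPM in replicate 2. Its activator Noxa1 had 0.06 TPM in replicate 1 and 0.18 TPM in replicate 2. Of the 9, only Nox4 and Noxo1 had enough counts for a ratio of replicate 1 over replicate 2 in scaled counts, at 1.02 (95% counting interval 0.742 to 1.39) and 1.66 (1.03 to 2.72); Nox4 lay on the other side of 1 by library size alone and by TPM. The dual oxidases Duox1 and Duox2, which make hydrogen peroxide in thyroid and epithelia, averaged 0.010 and 0.030 TPM, and their maturation factors Duoxa1 and Duoxa2 averaged 0.045 and 0.035 TPM. Nox3, the oxidase of the inner ear, was not counted in either library. A value of 0 leaves room for 3 counts, equal to 0.0906 CPM (counts scaled by library size) in replicate 1 and 0.0933 CPM in replicate 2.

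Each of the 7 genes was higher in replicate 2 than in replicate 1, as were 51.1% of the 15506 genes whose mean count reached 20. With counts scaled by TMM (trimmed mean of M values, which balances the libraries on most genes), the median log2 ratio of replicate 1 over replicate 2 was -0.31 over the members and -0.01 over all genes. Of the 7, 4 were at least 1.2-fold higher in replicate 2, against 20.1% of all genes, and 0 were at least 1.2-fold higher in replicate 1, against 13%. The number past 1.2-fold in replicate 2 moved with the scaling, as did the background. By library size alone it was 6 of 7, with Ncf4 and Rac2 added, against 29.5% of all genes. By the deposited TPM it was 5 of 7, with Rac2 added, against 24.8%. By spike-in totals it was 3 of 7, without Cyba, against 16.0%. Toward replicate 1 it was 0 of 7 in each of these, against 7.03% by library size alone, 3.93% by TPM and 18.3% by spike-in totals. At 1.5-fold, 1 of 7 was higher in replicate 2, against 4.57% of all genes, and 0 of 7 in replicate 1, against 2.54%. By the deposited TPM 2 of 7 were higher in replicate 2 by that much, against 2.5% of all genes. With 1 library per pup there is no replicate check of these ratios, and the ranges in brackets are exact Clopper-Pearson intervals at 95% that cover counting error only.

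The ratio differed among the members in size but not in direction. The CPM values of the members are scaled by TMM, not by library size alone. Hvcn1 had 14.2 CPM in replicate 1 and 22.5 CPM in replicate 2, a ratio of 0.630 (0.559 to 0.709). Ncf1 had 92.3 CPM in replicate 1 and 129 CPM in replicate 2, a ratio of 0.716 (0.683 to 0.750). Cybb had 84.7 CPM in replicate 1 and 111 CPM in replicate 2, a ratio of 0.763 (0.726 to 0.802). These 3 were past 1.2-fold under each scaling tried. Cyba had 167 CPM in replicate 1 and 207 CPM in replicate 2, a ratio of 0.806 (0.778 to 0.836), close to that of its partner; by spike-in totals its log2 ratio was -0.26, just short of 1.2-fold. Ncf4 and Rac2, at 0.847 (0.794 to 0.903) and 0.863 (0.837 to 0.890), lay just inside that line. Rac1, the broadly expressed member, had 272 CPM in replicate 1 and 285 CPM in replicate 2, a ratio of 0.953 (0.926 to 0.981), and 41.2% of all genes had a lower ratio. For comparison 3.25% of all genes had a lower ratio than Hvcn1, 7.13% than Ncf1 and 11.0% than Cybb.

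**Figure D3:**
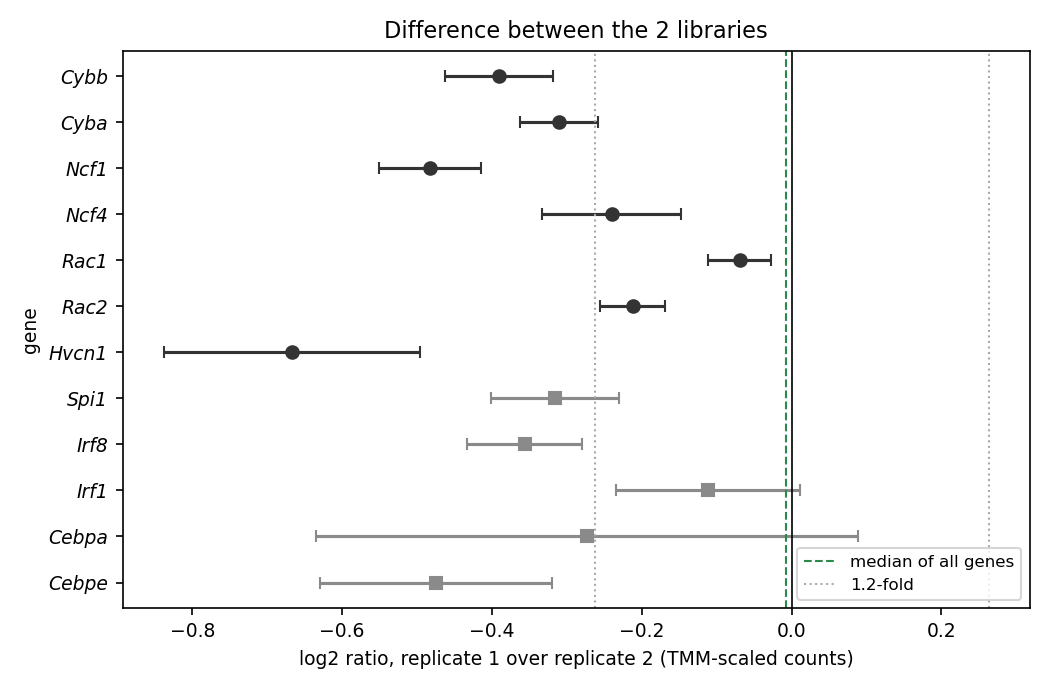
Log2 ratio of replicate 1 over replicate 2 in TMM-scaled counts for the 7 members (circles) and 5 transcription factors (squares), with 95% counting intervals; the dashed line is the median of all genes and the dotted lines mark 1.2-fold. All 7 members lie left of 0, Hvcn1 farthest and Rac1 nearest.

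The transcription factors listed as regulators of these genes lay on the same side. PU.1, encoded by Spi1, is known to activate CYBB, NCF1 and NCF4 in human myeloid cells, and IRF8 and IRF1 act with it on human CYBB. All 5 regulators listed were detected, as were 55.6% of protein-coding genes. Each was higher in replicate 2, against 51.1% of all genes, and 4 of them by at least 1.2-fold, against 20.1%. The median log2 ratio of the 5 was -0.32. Spi1 had 41.9 TPM in replicate 1 and 56.9 TPM in replicate 2, and Irf8 had 29.1 TPM in replicate 1 and 43.2 TPM in replicate 2. Cebpe, a factor of late neutrophil precursors, had 16.2 TPM in replicate 1 and 24.8 TPM in replicate 2, a scaled ratio of 0.720 (0.647 to 0.801). Cebpe is also in the list of neutrophil markers below, so these lists are not separate. The intervals of Irf1 and Cebpa, at 0.926 (0.850 to 1.01) and 0.828 (0.644 to 1.06), include 1.

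Promoters of 3 members, Cybb, Cyba and Ncf1, matched the RefSeq promoter table (GRCm38.p6) and are shown to compare the letters around the starts of both membrane subunits and the organizer. Each runs from 130 bases before the annotated start through 20 bases from it, on the minus strand of the genome, read 5′ to 3′, with PU.1 letters in capitals.
Cybb, chrX:9469305-9469454: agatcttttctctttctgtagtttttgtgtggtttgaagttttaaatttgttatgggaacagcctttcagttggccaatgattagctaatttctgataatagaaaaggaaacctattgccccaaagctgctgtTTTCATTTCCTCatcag
Cyba, chr8:122432921-122433070: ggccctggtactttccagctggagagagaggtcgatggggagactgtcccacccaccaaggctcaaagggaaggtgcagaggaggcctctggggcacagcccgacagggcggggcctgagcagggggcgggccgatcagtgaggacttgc
Ncf1, chr5:134229606-134229755: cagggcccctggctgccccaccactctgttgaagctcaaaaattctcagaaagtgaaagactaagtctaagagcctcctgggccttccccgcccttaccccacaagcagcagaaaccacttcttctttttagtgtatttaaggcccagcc
The windows searched ran from 250 bases before the start to 50 after it, on both strands. The PU.1 core GAGGAA was found in the Cybb window, on the reverse strand at bases 10 to 15 counted from the start as 1, and 28.3% of 32851 promoters hold it. The composite PU.1 and IRF motif, which is GGAA, any 2 bases and GAAA, was also found there, on the reverse strand at bases 4 to 13, overlapping the core by 4 bases; 2.72% of promoters hold it. Neither was found in the windows of Cyba or Ncf1. The GC box GGGCGG was found 2 times in Cyba, at -24 to -19 and -6 to -1, and 1 time in Ncf1, on the reverse strand at -42 to -37, and 35.7% of promoters hold it. TTNNGNAA, a C/EBP core, and TATAAA were in none of the 3 windows, against 40.7% and 13.6% of promoters. A match is only a description of these letters.

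Genes that mature or activate the oxidase were all expressed. All 18 listed reached 1 TPM in both libraries, as did 55.6% of protein-coding genes. Of the 18, 13 were higher in replicate 2, against 51.1% of all genes, and 6 by at least 1.2-fold, against 20.1%. The median log2 ratio of this list was -0.10. The number higher in replicate 2 depended on the scaling, with 16 of 18 by library size alone, 15 of 18 by TPM and 11 of 18 by spike-in totals. The median log2 ratio of all genes moved as well, by -0.10, -0.10 and 0.05 in that order. The highest were Prdx6, a peroxiredoxin with phospholipase activity that aids the oxidase, at 361 ± 5.61 TPM, and the inhibitors Arhgdib and Arhgdia, which hold Rac in the cytosol, at 286 ± 59.8 and 218 ± 18.2 TPM (SD, n = 2 each). Arhgdib, the form typical of blood cells, had a scaled ratio of 0.815 (0.792 to 0.839), and Arhgdia one of 0.980 (0.955 to 1.00). Prkcb, a protein kinase C that phosphorylates the organizer, had the largest difference of this list, with 10.4 TPM in replicate 1 and 16.3 TPM in replicate 2, a scaled ratio of 0.686 (0.629 to 0.748). Vav1, an exchange factor that loads Rac in blood cells, had a ratio of 0.733 (0.681 to 0.788). Cybc1, the chaperone needed to make the flavocytochrome, was near equal in the libraries, at 24.5 TPM in replicate 1 and 27.0 TPM in replicate 2 and a scaled ratio of 1.00 (0.937 to 1.08).

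Among the enzymes that handle the products of the oxidase, 4 of 5 were detected, against 55.6% of protein-coding genes. Sod1, the cytosolic superoxide dismutase, and Cat, catalase, both abundant in red cells, had scaled ratios of 1.199 (1.18 to 1.22) and 1.16 (1.11 to 1.203), so they were higher in replicate 1, at 1580 ± 93.3 and 67.2 ± 2.29 TPM on average. Sod2, another superoxide dismutase, was also higher in replicate 1, with a scaled ratio of 1.164 (1.11 to 1.219). Mpo, which makes hypochlorous acid from hydrogen peroxide in neutrophils, had 348 TPM in replicate 1 and 477 TPM in replicate 2, a scaled ratio of 0.786 (0.772 to 0.80). Sod3, the extracellular dismutase, had 0.99 TPM in replicate 1 and 1.46 TPM in replicate 2. Over this list 2 of 5 were higher in replicate 2, against 51.1% of all genes, and the median log2 ratio was 0.21.

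Markers of the cell types that express the oxidase were higher in replicate 2 as well. The counts below stand against 51.1% of all genes higher in replicate 2, and 55.6% of protein-coding genes detected. All 10 neutrophil markers were detected and all 10 were higher in replicate 2, with a median log2 ratio of -0.36 and a summed level of 13170 TPM in replicate 1 and 18930 TPM in replicate 2, most of it from S100a8, S100a9 and Ngp. All 10 macrophage markers, led by C1qb, Vcam1 and C1qa, were higher in replicate 2, with a median of -0.52 and a sum of 313 TPM in replicate 1 and 472 TPM in replicate 2. The 5 monocyte markers, led by Ly6c2, Fn1 and F13a1, and the 5 B cell markers, led by Ighm, Cd79b and Cd79a, were all higher in replicate 2, with medians of -0.36 and -0.37. The monocyte list summed to 163 TPM in replicate 1 and 237 TPM in replicate 2, and the B cell list to 161.5 TPM in replicate 1 and 229 TPM in replicate 2. Also higher in replicate 2 were the 5 mast cell markers, led by Tpsb2, Cma1 and Mcpt4, with a median of -1.005 and a sum of 807.5 TPM in replicate 1 and 1825 TPM in replicate 2, and the 4 spleen mesenchyme markers, with a median of -0.39. The erythroid and pancreas markers lay on the other side: all 4 erythroid markers and the 4 of 5 pancreas markers with enough counts were higher in replicate 1, with medians of 0.24 and 1.77. The erythroid list, led by Hbb-bs, Hba-a1 and Alas2, summed to 125000 TPM in replicate 1 and 117800 TPM in replicate 2. The pancreas list, led by Ctrb1, Clps and Cela2a, summed to 809 TPM in replicate 1 and 287 TPM in replicate 2. T cell markers were low: 3 of 5 were detected, Lck, Cd3d and Cd3g, with a median of -0.01 (0.04 by spike-in totals) and a sum of 12.7 TPM over the list in replicate 1 and 15.3 TPM in replicate 2, and Cd3e was at 0.36 TPM in replicate 1 and 0.50 TPM in replicate 2. Of 3 eosinophil markers, Prg2 was detected, with a log2 ratio of -0.16, while Ear6 and the peroxidase Epx were near 0, with Epx at 0.12 TPM in replicate 1 and 0.34 TPM in replicate 2. The list summed to 8.37 TPM in replicate 1 and 10.8 TPM in replicate 2. Whether other cells of the spleen also express these markers, Fn1 and Vcam1 among them, was not tested. The part of these cell types in the ratios of the oxidase genes was not tested.

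**Figure D4:**
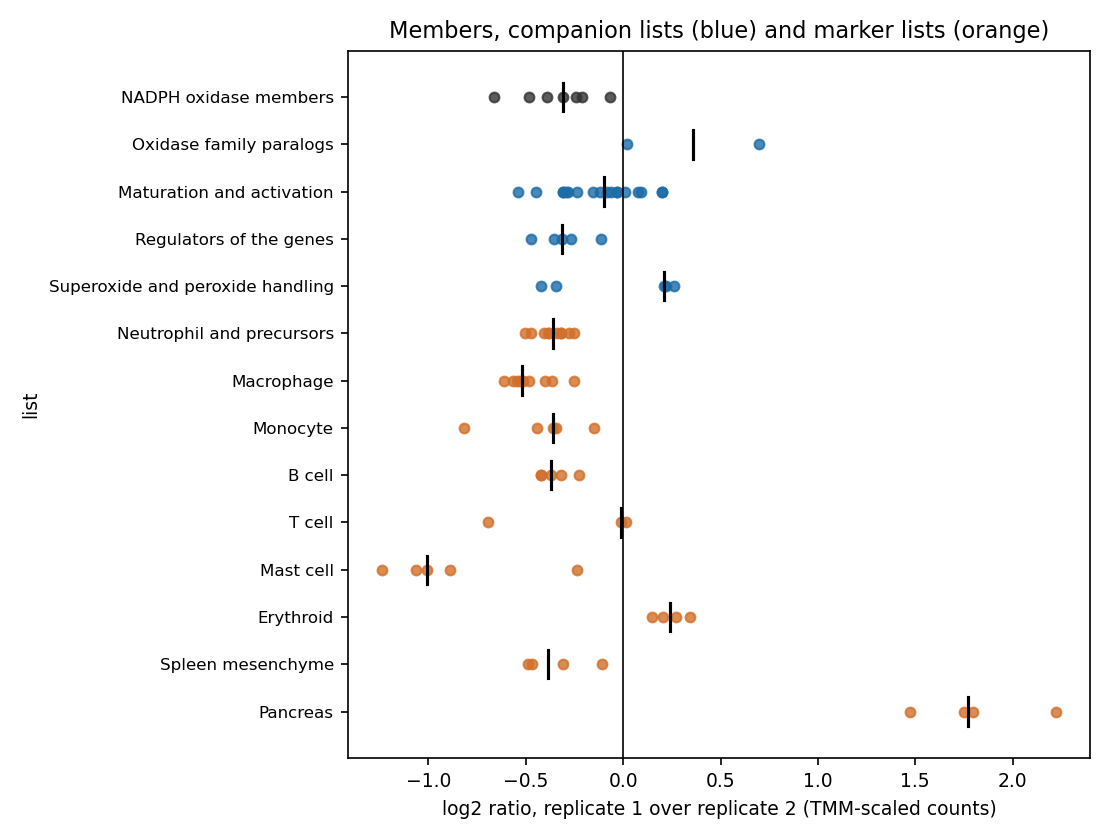
Log2 ratio of replicate 1 over replicate 2 in TMM-scaled counts for the members (dark), companion lists (blue) and marker lists (orange), 1 point per gene with a mean count of at least 20 and a bar at the median; 1 companion list and any list with 1 such gene are not drawn. The median of the members is -0.31. That of the regulators is -0.32. Farther left are those of the neutrophil (-0.36), monocyte (-0.36), B cell (-0.37), spleen mesenchyme (-0.39), macrophage (-0.52) and mast cell (-1.005) lists. The erythroid and pancreas lists lie right of 0.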

How the data were processed

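Total RNA longer than 200 nt (10 ng of input, with spike-ins) from 2 newborn spleens was sequenced, per the labels. The authors quantified reads on mm10 with GENCODE M4 gene models, according to a listing that accompanies the deposited tables. The column layout is that of RSEM; no source used here states the aligner, versions or strand use. Because the authors deposited expected counts, which are estimates and need not be whole, these were rounded. The deposited TPM values are normalized by the authors for length and library total; the transcript tables also hold the deposited percent of each transcript, recomputed here as a share of TPM. Effective length is length minus 99 nt, which raises TPM of short transcripts. Names and coordinates are from GENCODE M21 (GRCm38), matched by identifier without version for 42462 of 43346 genes; transcript lengths are those of the files.

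Ratios used TMM factors of edgeR 4.0.16 (R 4.3.3) and a prior count of 2 for log2 values, over genes whose mean count reached 20, spike-ins left out. DESeq2 1.42.0 gave an alternative scaling. Python 3.11.15, pandas 2.3.3, scipy 1.17.1 and matplotlib 3.10.9 were used. On simulated counts for replicate 1 against replicate 2 (15499 genes), 100 genes set to a log2 ratio of 1 had a median of 0.98 and 100 set to -0.5 one of -0.51. No molecular identifiers are described, so intervals and limits for a value of 0 describe counting error and nothing else. No p-value was computed, and no measure of likeness to other genes, which needs more than 2 libraries.

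Members and lists were chosen with earlier results of these data known. The text names all members, every oxidase family gene, the 3 highest genes of each companion list and the one with the largest ratio among those averaging 100 counts or more, and the 3 highest markers of each list. Cybc1, Vav1, Irf1, Cebpa, Sod2, Nkx2-5 and Cd3e fall outside this rule and were picked with their values in view. Not every subunit of the complex, nor every gene list and sequence considered, is reported here, and protein sequences were not used.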

Additional observations from a re-analysis of the deposited data

How the results depend on the processing

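All 7 members were higher in replicate 2 under each of the 8 other scalings, filters and prior counts tried, and their median log2 ratio ranged from -0.41 by library size alone to -0.26 by spike-in totals. For Rac1 the log2 ratio was -0.02 by spike-in totals, which rest on 694 counts in replicate 1 and 748 in replicate 2. The regulators and the neutrophil, macrophage, monocyte, B cell, mast cell, mesenchyme, erythroid and pancreas markers kept their direction by library size, DESeq2 size factors, spike-in totals and TPM. The deposited TPM moved the median of all genes by -0.10 on the log2 scale. Of 14 summary values that moved, the summed TPM was 954 with adult globins, spike-ins and numbered features left out of the scaling, and Cybb over Cyba was 0.0720 by coding transcripts alone, against 0.0862 by gene TPM. That alternative, like leaving single Ncf4 transcripts out, was chosen after seeing the data. It also puts Ncf4 at 31.7 TPM, below Ncf1, and leaves 5 of 7 members at their place in the order of levels. Leaving out Ncf4-206 put Ncf4 at 44.98 TPM on average, and leaving out Ncf4-204 as well put it at 32.46 TPM. These means are below the 45.63 TPM of Ncf1. The order was the same by posterior mean TPM and under each rescaling of TPM. It also held without replicate 1 or 2, where the sum was 791 and 609 TPM.

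Of all genes, 2018 and 3109 were at least 1.2-fold higher in replicates 1 and 2, and 394 and 709 at least 1.5-fold. At 1.2-fold toward replicate 1 the number was 1090 by library size alone, 609 by TPM, 5507 without a filter and 1206 with a minimum mean of 100 counts. Toward replicate 2 it was 6970 without a filter. At 1.5-fold toward replicate 1 it was 2996 without a filter, 117 with that minimum and 118 by TPM. Toward replicate 2 it was 1075 by library size alone, 2754 without a filter, 241 with that minimum and 388 by TPM. The filters change how many genes are counted; the other causes were not tested. No paired analysis was possible because there is 1 group. With 1 library per pup, a difference between pups and one between library preparations cannot be told apart.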
